A study of Canis lupus familiaris with 8 samples.

Results

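Stem-like cells sorted from a doxorubicin-resistant canine mammary tumour line were compared with the same kind of cells sorted from the sensitive line it came from. The members were 4 of the 8 samples of the series, 2 of Star CSC and 2 of Stylo CSC, chosen by their labels, and all 454 canine miRNAs of the array were considered. Star CSC were sorted from CMT-Star, a line obtained from CMT-Stylo by raising the dose of doxorubicin, a DNA-intercalating drug, over months until the cells withstood 100 nM, and their samples are labelled as doxorubicin treated. Stylo CSC were sorted from CMT-Stylo, a mammary adenocarcinoma line, and are labelled as not treated. Star parent and Stylo parent are the unsorted lines, with 2 samples each, and stand here as the comparison for what the lines show without sorting. CSC is the labels' name for cells that were CD44+, CD24-/low and ALDH+ by flow cytometry, and all groups were cultured in serum-containing DMEM. CMT-Star is 1 derived line, and the labels do not say whether the drug was present when cells were harvested or whether replicates were separate cultures. Each p-value below therefore sets a difference against the spread among these particular samples, and that spread may be technical.

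MicroRNAs are short RNAs that, loaded into Argonaute proteins, pair through their seed with messenger RNAs and lower the output of those messages. Members of a family share the seed and much of their target range, and several miRNAs are cut from the same primary transcript or lie in an intron of a protein-coding gene. In mammary cells the let-7 and miR-200 families are known, from human and mouse work, to hold back self-renewal, and both are typically low in breast cancer cells with stem-like behaviour. The array has no probe for the CD44, CD24 or aldehyde dehydrogenase transcripts, so the sort itself could not be checked against these data.

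Levels were read from 1-colour Agilent arrays hybridised with 100 ng of total RNA. They are available in 3 forms: all 7 distinct scanner arrays, the 6 scanner arrays of slide 1, and the deposited value table turned back into totals per miRNA. The forms matter because the scanner array of Stylo CSC replicate 1 lay alone on slide 2 and stood apart. Its correlation with the other arrays was r = 0.54 to 0.61, taken over the 17 miRNAs that passed background everywhere. The value table holds different values for the same sample, which correlated with its other columns at r = 0.96 to 0.98 over 22 miRNAs. The set without this array leaves n = 1 for Stylo CSC. The scanner files of the 2 Stylo parent samples were identical and were counted as 1 sample. On slide 1 the spread behind each p-value therefore came from the Star CSC and Star parent pairs alone. All Star arrays occupied row 2 of the slide and all Stylo arrays row 1, so line and slide row cannot be told apart. A level below is the log2 of a signal divided by its array's 75th percentile.

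The Star CSC arrays were the brightest of the series. Their 75th percentile of signal was 500.4 and 452 intensity units, against 212 and 307 in Stylo CSC, so the Star CSC mean was 1.84 times that of Stylo CSC, and 1.55 times without Stylo CSC replicate 1. In the value table the percentile of totals was 131 and 118 in Star CSC, against 76.5 and 70.9 in Stylo CSC, a ratio of 1.69. Unsorted arrays gave 333 and 316 for Star parent, against 219 for Stylo parent. Star CSC arrays showed 49 and 43 miRNAs well above background, against 24 and 40 in Stylo CSC. Scaling removes this difference in brightness. With no scaling the median log2 change over the tested miRNAs was 0.79 over the 7 arrays, 0.54 on slide 1 and 0.78 in the value table, where scaled values had medians of 0.05, 0.01 and 0.12. Changes are therefore relative to the bulk of the miRNAs on the same array. In such bulk samples, fewer cells of a type and less RNA per cell cannot be told apart.

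**Figure D1:**
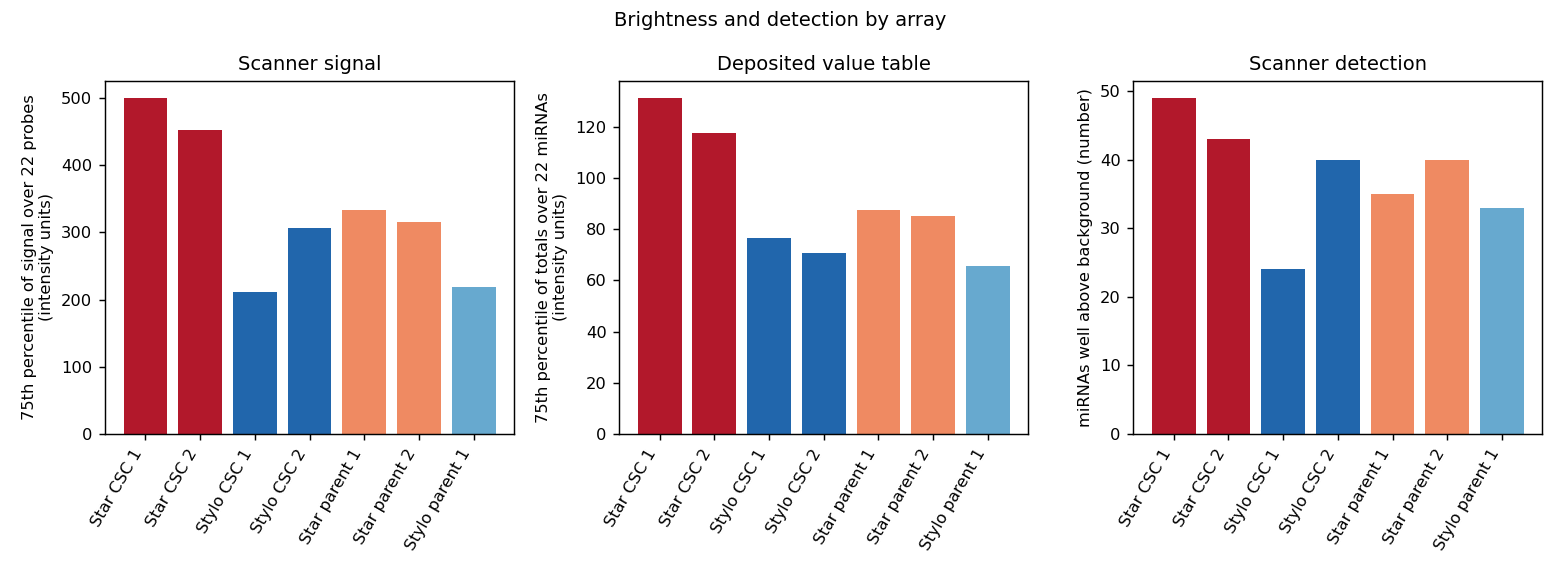
Brightness and detection of the 7 distinct scanner arrays and of the matching columns of the deposited value table. Bars give the 75th percentile of signal over 22 probes (left), the 75th percentile of totals over 22 miRNAs (middle), both in intensity units, and the number of miRNAs well above background (right). Star CSC arrays reached 500.4 and 452 units, against 212 and 307 in Stylo CSC.

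Members of the let-7 family were the brightest miRNAs of Star CSC. Let-7b had the highest scanner signal in Star CSC, at 3993 and 3507 intensity units, against 584 and 2282 in Stylo CSC. Let-7a followed with 2451 and 2200.2 in Star CSC, against 613 and 1436 in Stylo CSC. The order broke on the array of slide 2, where miR-494, a miRNA of the large imprinted cluster that also holds miR-379 and miR-376a, reached 1228 units. It stood at 253 units on the other Stylo CSC array, against 373 and 345 in Star CSC. MiR-8904b, a miRNA named in the dog, had 482 units on the slide 2 array and 201 on the other Stylo CSC array, against 340 and 310 in Star CSC. The Star CSC arrays lay close together, with a median absolute log2 difference of 0.046 between the 2 over 46 tested miRNAs, while the 2 Stylo CSC arrays differed by 0.65. In the value table, over the 29 miRNAs detected in all 4 CSC columns, the median difference was 0.050 between the Star CSC columns and 0.090 between the Stylo CSC columns. Over all 56 tested there it was 0.077 and 0.365, with 2 and 18 miRNAs differing by over 1.

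The number of miRNAs that passed between the lines in sorted cells differed between the 3 forms, which differ in more than the values of Stylo CSC replicate 1. Over the 7 arrays 3 of 46 tested miRNAs passed a Benjamini-Hochberg adjusted p of 0.05 with limma, a share of 6.52%, and all 3 were higher in Star CSC. On slide 1 23 of 50 passed, a share of 46.0%, with 14 higher and 9 lower. The value table had 11 of 56 that passed, a share of 19.6%, with 6 higher and 5 lower. A miRNA was tested if it passed background, or was detected, in every sample of at least 1 group, so one that did so only where it is high had to differ. Of the calls, 1 of 3, 5 of 23 and 2 of 11 met this filter through 1 CSC group alone, and their p-values are no support. They were miR-31 in each form, miR-138a, miR-188, miR-1249 and miR-8799g on slide 1 and miR-151 in the table. Single arrays carried much of this. Among the 7 arrays the count was 23 without Stylo CSC replicate 1, 36 without Stylo CSC replicate 2, 0 without Star CSC replicate 1, 1 without Star CSC replicate 2, and 0 without either Star parent array. On slide 1 it was 10 and 11 without Star CSC replicate 1 or 2, and 8 without either Star parent array. The value table gave 19 without Stylo CSC replicate 1 and 7 without Stylo parent replicate 2. Without scaling the value table called 31, all higher in Star CSC. Scaled over all probes instead, the slide 1 set called 0 and the 7 arrays called 0, by limma.

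Slide 1 and the value table shared 6 called miRNAs of the same sign, 4 higher and 2 lower in Star CSC, which is 26.1% of the slide 1 calls and 54.5% of the table's, miR-31 and miR-188 among them. The value table holds the totals of the slide 1 arrays as well, so these are not independent. Of the 23 slide 1 calls 21 were tested in the table. There 18 had the same sign, and miR-1249, miR-8843 and miR-8892 had the opposite one. On each of these 3 the table's Stylo CSC replicate 1 was not detected.

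MiR-31, a suppressor of metastasis in human breast cancer models, was detected in Star CSC and in no other group in each form of the data. Its scanner signal was 86.5 and 68.0 units in Star CSC, against 5.94 and 11.0 in Stylo CSC. Over the 7 arrays the groups did not overlap, as for 11 miRNAs higher and 5 lower of all 46 tested. Background was passed by 2 of 2 Star CSC arrays, against 0 of 2 in Stylo CSC. In the value table its total was 13.7 and 10.5 in Star CSC and it was not detected in Stylo CSC. It was at least 2.08-fold higher in Star CSC on slide 1, 1.48-fold in the table and 1.52-fold over the 7 arrays. It met the filter through Star CSC alone, so the adjusted p of 0.0209, 0.000377 and 0.0171 in these 3 fits by limma describe it and support nothing. Only 1 of its 3 probes was well above background, and that probe was higher by 1.74 on slide 1. Every scanner array of the other groups had miR-31 at the floor, so its error holds spread from 2 arrays alone. Of the alternatives tried, 11 of 21 kept the 7-array call, 5 of 9 the slide 1 call and 13 of 14 the table call. The 7-array call ended with no filter, with the highest floor, with the percentile over all probes, with software totals, with CSC arrays alone, with the replicate block and without Star CSC replicate 1 or either Star parent array, and the slide 1 call with the percentile over all probes and without either Star parent array. With normexp background correction both ended and the values turned to −0.30 and −0.08. The table call ended with the shifts of the deposited columns.

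MiR-188, from a miRNA cluster inside CLCN5 that also encodes miR-532, miR-500, miR-362 and miR-660, was brighter in Star CSC where the slide 2 array was absent. Its scanner signal was 88.1 and 83.2 units in Star CSC, against 42.0 and 26.6 in Stylo CSC. On slide 1 it was at least 2.07-fold higher, and both of its probes were higher. There it passed background on the Star CSC arrays alone, so its adjusted p of 0.00179 by limma is no support. Its totals in the value table were 24.9 and 23.5 in Star CSC, against 4.55 in Stylo CSC replicate 2 and no detection in replicate 1 (2.08 ± 0.44, adjusted p = 0.0308 by limma). This size depends on the floor of −4.91, to which replicate 1 was set. The lowest detected level of that column was −3.72. With all 7 arrays it was at 0.46 ± 0.43 (adjusted p = 0.672). After scaling, the slide 2 array stood at −2.33 and Star CSC at −2.51 and −2.44, so the groups overlapped. The table call ended with the replicate block, and without any of Star CSC replicate 1, Star CSC replicate 2 or Stylo CSC replicate 1. It also ended with CSC columns alone, with miRNAs detected in at least 1 column and with the shifts of the deposited columns. With normexp the slide 1 value turned to −0.02. The other 5 listed members of this cluster on the array did not pass background in any CSC sample.

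**Figure D2:**
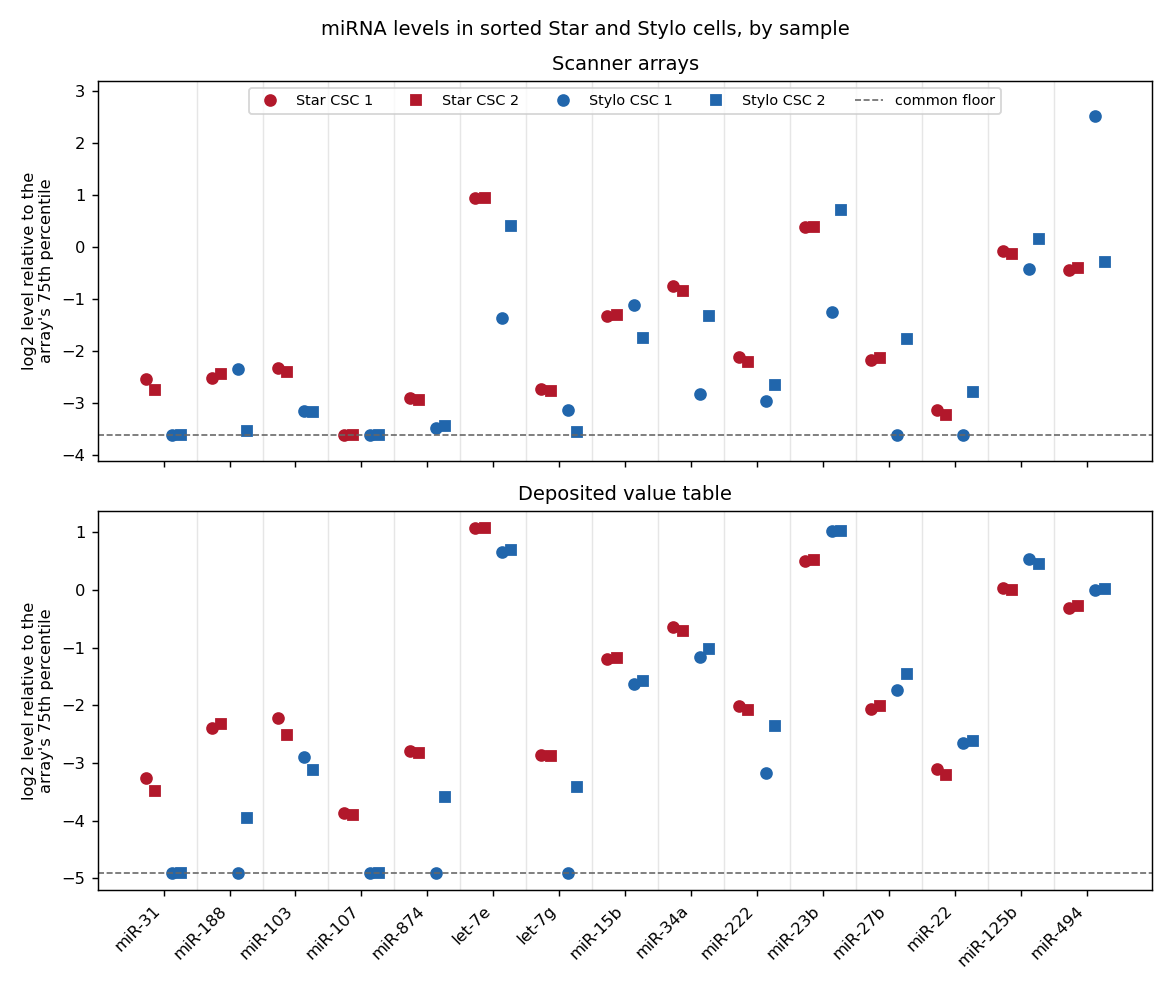
Levels of 15 miRNAs in the 4 sorted samples, as log2 relative to the array's 75th percentile, from the scanner arrays (top) and the deposited value table (bottom). Points are samples, red for Star CSC and blue for Stylo CSC, circles for replicate 1 and squares for replicate 2, and the dashed line is the common floor. MiR-31 lay at the floor in Stylo CSC in both panels, and miR-494 of Stylo CSC replicate 1 reached 2.54 on the scanner and −0.01 in the table.

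MiR-103 and miR-107 are close relatives that lie in introns of the pantothenate kinase genes PANK3, PANK2 and PANK1 and that, in human breast cancer cells, repress Dicer. MiR-103 had scanner signals of 100.0 and 85.6 units in Star CSC, against 23.8 and 34.2 in Stylo CSC. It was 1.74-fold higher both over the 7 arrays (0.80 ± 0.09, adjusted p = 0.0171) and on slide 1 (0.80 ± 0.11, adjusted p = 0.0294), and passed background on 1 of 2 Stylo CSC arrays. In the value table, with totals of 28.3 and 20.7 in Star CSC against 10.3 and 8.18 in Stylo CSC, it did not pass (0.64 ± 0.52, adjusted p = 0.471). There its groups did not overlap either, as for 21 miRNAs higher and 15 lower of all 56 tested. MiR-107 showed the reverse pattern of calls. It passed in the table, with totals of 8.98 and 7.88 in Star CSC and none detected in Stylo CSC (at least 1.04-fold, adjusted p = 0.000377 by limma). All Stylo CSC and Stylo parent columns lay at the floor there, so its error holds spread from the Star columns alone. Over the 7 arrays miR-107 stood at 0.00 ± 0.07, where all 4 CSC arrays lay at the common floor. Its scanner signal was 39.6 and 35.7 units in Star CSC, against 6.21 and 11.6 in Stylo CSC. The pair has nearly identical sequences, so signal may be shared between their probes. With normexp miR-103 turned to −0.23 over the 7 arrays and −0.05 on slide 1, and its calls in both scanner sets ended without each of the 4 Star arrays in turn.

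MiR-874, from an intron of KLHL3, was higher in Star CSC by both scanner sets. It gave 66.9 and 58.9 units in Star CSC, against 19.0 and 28.3 in Stylo CSC, and was not well above background on either Stylo CSC array. The difference was at least 1.18-fold over the 7 arrays (adjusted p = 0.0422) and at least 1.42-fold on slide 1 (0.51 ± 0.04, adjusted p = 0.0115). In the table, with totals of 18.9 and 16.7 in Star CSC, it was detected in 1 of 2 Stylo CSC columns at 5.85 and did not pass (1.45 ± 0.42, adjusted p = 0.0798). With normexp it turned to −0.21 over the 7 arrays and −0.05 on slide 1, the slide 1 call ended without either Star parent array, and the 7-array call without any of the 4 Star arrays or the Stylo parent array.

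The let-7 family, which restrains RAS, HMGA2 and LIN28 and promotes differentiation, was represented by 6 tested members of the 10 listed, of which 9 are on the array, and the other 3 did not pass background in CSC. On slide 1 4 of 6 were higher in Star CSC and 0 lower, where 14 of all 50 tested were higher and 46.0% were called, with a family median of 0.28 beside 0.01 over all tested miRNAs. The median exceeded that of all tested miRNAs by 0.26 to 0.38 under the 4 other scalings and backgrounds tried on slide 1. Leaving out the scaling, or using the percentile over all probes, shifts all miRNAs of an array together apart from the floor. Those settings could therefore hardly change this margin and are no check on it. In the value table a single member of the 6 passed, beside 19.6% of all tested, and the median of 0.12 stood beside 0.12 over all tested miRNAs. Over the 7 arrays 0 of 6 passed by limma, beside 6.52% of all tested. An unadjusted p under 0.05 was reached by 2 of the 6, beside 7 of all 46 tested. Let-7 sequences differ by few bases, so members are uncertain one by one.

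Let-7e, which lies beside miR-125a and miR-99b, was the family member that passed in both sets. Its table totals were 275 and 247 in Star CSC, against 120.4 and 115 in Stylo CSC, and its scanner signals were 973 and 874 units in Star CSC, against 82.8 and 406 in Stylo CSC. It was higher in Star CSC by 0.54 ± 0.05 on slide 1 (adjusted p = 0.0166) and by 0.39 ± 0.06 in the table (adjusted p = 0.0111). Both of its probes were higher on slide 1. The slide 1 calls of let-7e and let-7g ended without either Star CSC array, and those of let-7c and let-7f without any of the 4 Star arrays. Let-7g passed on slide 1 alone, with scanner signals of 75.8 and 66.9 units in Star CSC, against 24.1 and 26.3 in Stylo CSC (0.80 ± 0.07, adjusted p = 0.0131). With normexp it was at −0.02. Let-7c at 0.30 and let-7f at 0.27 also passed on slide 1, and let-7a (0.055) and let-7b (0.07), the brightest members, did not. In the table let-7a stood at −0.16 and let-7b at −0.12, and without scaling they turned to 0.59 and 0.63 there.

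MiR-15b and miR-16 lie together inside SMC4 in the dog, with another copy of miR-16 beside miR-15a, and repress BCL2 and cyclins in human cells. MiR-15b had table totals of 57.0 and 52.2 in Star CSC, against 24.7 and 23.6 in Stylo CSC. It was higher by 0.43 ± 0.08 on slide 1 (adjusted p = 0.0351) and by 0.42 ± 0.06 in the table (adjusted p = 0.0115). With all 7 arrays it was at 0.12 ± 0.24, and there without Stylo CSC replicate 2 it turned to −0.19. On the slide 2 array it stood at −1.11 after scaling, above the −1.31 and −1.29 of Star CSC. The slide 1 call of miR-15b ended without either Star CSC array. MiR-16 passed on slide 1, where it was not well above background in Stylo CSC, at least 1.44-fold higher (0.53 ± 0.03, adjusted p = 0.00688). In the table its totals were 13.6 and 12.2 in Star CSC, against 5.55 in Stylo CSC replicate 2 and no detection in replicate 1 (1.03 ± 0.62, adjusted p = 0.333). With normexp miR-16 turned to −0.00195 on slide 1.

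MiR-92a, of the proliferation-promoting miR-17-92 clusters, and miR-25 and miR-93, which share the MCM7 intron, gave values that hung on the slide 2 array. MiR-92a had scanner signals of 89.2 and 69.0 units in Star CSC, against 90.8 on the slide 2 array and 28.9 on the slide 1 array of Stylo CSC. It was higher by 0.80 ± 0.13 on slide 1 (adjusted p = 0.0332), was at −0.29 ± 0.78 over the 7 arrays, and did not pass in the table (1.69 ± 0.51, adjusted p = 0.0826). With normexp its slide 1 value turned to −0.06, and the slide 1 call ended without either Star parent array. Of the 14 listed miR-17-92 miRNAs and paralogues 3 were tested on slide 1, of which miR-92a and miR-25 passed higher, where 46.0% of all tested miRNAs passed. MiR-25, named after its values were seen, was at 0.22 there. Its call ended by quantile normalization, with the percentile over all probes and without Star CSC replicate 1 or either Star parent array, and its value turned to −0.00401 with normexp.

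Among miRNAs often discussed in breast tumours, miR-34a, which p53 induces and which represses CD44 in human prostate cancer, had table totals of 84.3 and 71.6 in Star CSC, against 34.0 and 34.9 in Stylo CSC. It was higher by 0.51 ± 0.08 on slide 1, where the call ended without any of the 4 Star arrays. In the table it did not pass (0.42 ± 0.13, adjusted p = 0.0912 by limma). Its groups did not overlap there, as for 21 miRNAs higher and 15 lower of all 56 tested. MiR-222, which represses the cell cycle inhibitor CDKN1B, was higher by 0.48 ± 0.10 on slide 1 (adjusted p = 0.0441), a call that ended without any of the 4 Star arrays, and turned to −0.10 with normexp. Its neighbour miR-221 was at 0.02 ± 0.31 there. MiR-21, an oncogenic miRNA that targets PDCD4, had totals of 49.1 and 44.0 in Star CSC, against 25.3 and 22.8 in Stylo CSC, and its scaled change of 0.20 ± 0.07 did not pass (adjusted p = 0.135). MiR-155 was detected in 1 of 2 Star CSC columns of the table and 0 of 2 of Stylo CSC.

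Of the miRNAs called lower in Star CSC, 5 of 9 on slide 1 and 5 of 5 in the table turned to higher without scaling. MiR-23b, from the cluster with miR-27b and miR-24-1 in C1H9orf3, had table totals of 187 and 169 in Star CSC, against 156 and 144 in Stylo CSC. Relative to the arrays' percentiles it was lower by 0.33 on slide 1 (−0.33 ± 0.05, adjusted p = 0.0294) and 0.51 in the table (−0.51 ± 0.05, adjusted p = 0.00463), but without scaling it turned to 0.31 and 0.25, and the slide 1 call ended without any of the 4 Star arrays. Its cluster partner miR-27b, which represses CYP1B1 in human cells, was at −0.40 ± 0.07 on slide 1 (adjusted p = 0.0354) and −0.44 ± 0.12 in the table (adjusted p = 0.0783), turning to 0.24 and 0.32 without scaling. Its slide 1 call ended without either Star CSC array. MiR-23a, from the paralogous cluster, was at −0.03 and −0.26 and did not pass. In the 3 sets 0, 2 and 1 of the 3 tested members of these clusters passed, all lower, beside 6.52%, 46.0% and 19.6% of all tested miRNAs.

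MiR-494 was lower in Star CSC by 0.14 on slide 1 (−0.14 ± 0.02, adjusted p = 0.0342) and by 0.30 in the table (−0.30 ± 0.06, adjusted p = 0.0244), and turned to 0.50 and 0.46 without scaling. Of 34 listed miRNAs of its imprinted cluster 29 are on the array and miR-494 was the 1 tested. Its slide 1 call ended without any of the 4 Star arrays, and its table call with the replicate block, without Stylo CSC replicate 1 and without Stylo parent replicate 2. In the table miR-125b, which represses ERBB2 in human cells, had totals of 135 and 118 in Star CSC, against 111 and 96.6 in Stylo CSC. It passed as lower (−0.47 ± 0.07, adjusted p = 0.0111), as did miR-331 (−0.36 ± 0.06, adjusted p = 0.0147) and miR-22, a repressor of TET enzymes in mouse mammary tissue (−0.52 ± 0.13, adjusted p = 0.0494). Without scaling these 3 turned to 0.28, 0.40 and 0.23. The calls of miR-125b and miR-331 ended without Stylo parent replicate 2, and that of miR-22 without any sample other than Stylo parent replicate 1. On slide 1 the 3 were at −0.26, −0.22 and −0.41 and did not pass.

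On slide 1, 6 further miRNAs passed as lower. MiR-197 had the largest fall among those with measured levels in both groups, with 109.6 and 86.4 units in Star CSC, against 142 in Stylo CSC replicate 2 (−1.18 ± 0.12, adjusted p = 0.0176), and was at −1.01 ± 0.27 in the table (adjusted p = 0.0651). MiR-8843 (−1.16), miR-1249 (−0.59) and miR-8892 (−0.52) had no known role that can be given here. In the table they were at 0.22, 0.44 and 0.51. The slide 1 calls of miR-197 and miR-8892 ended without either Star parent array, and those of miR-8843 and miR-1249 without any of the 4 Star arrays. MiR-138a and miR-8799g passed background on the slide 1 array of Stylo CSC and on no other. MiR-138a had 24.8 and 14.9 units in Star CSC, against 10.0 and 57.1 in Stylo CSC. MiR-8799g had 21.1 and 16.6 units in Star CSC, against 3.85 and 32.2 in Stylo CSC. For both, the Stylo CSC replicates lay on either side of Star CSC in these unscaled units. After scaling over the 7 arrays, Stylo CSC replicate 1 and both Star CSC arrays lay at the floor of −3.61. MiR-138a was at least 2.41-fold lower in Star CSC on slide 1, with every other array at the floor, which leaves no spread to test against.

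**Figure D3:**
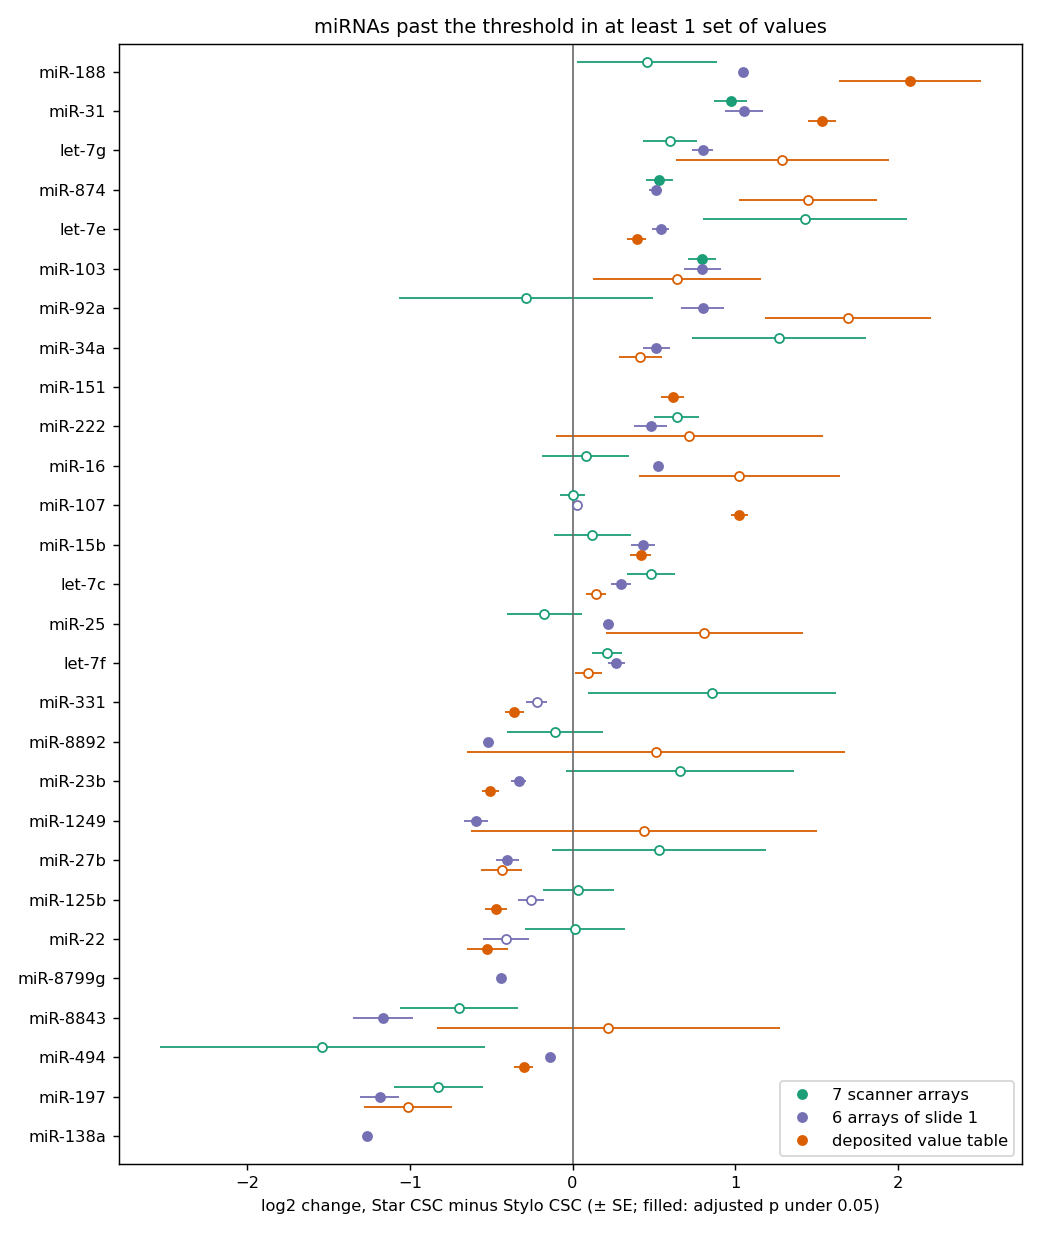
Log2 change, Star CSC minus Stylo CSC, with standard errors, of the miRNAs that passed in at least 1 form of the data. Green is the 7 scanner arrays, purple the 6 arrays of slide 1 and orange the deposited value table; filled points have an adjusted p under 0.05, and a missing point was not tested in that form. MiR-31 stood at 0.97, 1.05 and 1.54, each time against groups at the floor, and miR-23b was lower on slide 1 (−0.33) and in the table (−0.51) but turned to 0.31 and 0.25 without scaling.

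Detection gave a simpler reading. Among the 7 arrays, miR-31, miR-107, miR-320 and miR-874 passed background in 2 of 2 Star CSC arrays and in 0 of 2 for Stylo CSC, and 0 miRNAs showed the reverse. On slide 1 the numbers were 8 and 2, adding miR-16, miR-93, miR-188 and miR-8815 on the Star CSC side and miR-138a and miR-8799g on the Stylo CSC side. In the table they were 5 and 0, the 5 being miR-31, miR-107, miR-106a, miR-151 and miR-183. A brighter array brings more miRNAs above background, and the part of brightness in these counts was not tested. MiR-151, from an intron of PTK2, had table totals of 6.33 and 6.33 in Star CSC and was not detected in any other column, with no fold given because its bound lay under 1. MiR-183, which shares a cluster with miR-96 and miR-182, had totals of 7.26 and 3.02 in Star CSC and did not pass (0.37 ± 0.24, adjusted p = 0.370).

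Counts for the lists by function are to be read beside all tested miRNAs, of which 46.0% were called on slide 1, 14 higher and 9 lower, and 19.6% in the table, 6 higher and 5 lower. Of the 24 listed miRNAs discussed for breast cancer stem cells, 14 were tested on slide 1, with 6 higher (let-7c, let-7e, let-7f, let-7g, miR-103 and miR-34a) and 1 lower (miR-27b), and a median of 0.10 beside 0.01 over all tested. The table tested 15, with 2 higher, let-7e and miR-107, 1 lower, miR-22, and a median of 0.14 beside 0.12. By limma 20 of all 56 tested there had an unadjusted p under 0.05, 11 higher and 9 lower. Unadjusted counts for the table below are to be read beside that. Of 20 listed for doxorubicin resistance, 6 were tested on slide 1, where miR-222 and miR-34a passed higher, and 0 of 6 passed by limma in the deposited values, where miR-21 and miR-34a had an unadjusted p under 0.05. Tumour-suppressor miRNAs had 3 of 7 higher on slide 1 (miR-16, miR-34a and miR-31, which met the filter through Star CSC alone) and, in the table, 1 higher (again miR-31) and 2 lower (miR-125b and miR-22). Oncogenic miRNAs had 2 of 6 higher on slide 1, miR-222 and miR-92a, and 0 of 6 in the deposited values, with miR-21 and miR-92a at an unadjusted p under 0.05. The 5 members of the epithelial miR-200 family, and the markers of muscle (8), liver (1), endothelium (1) and mesenchyme (5), passed background on 0 CSC arrays and were detected in 0 CSC columns of the table. Of 9 haematopoietic miRNAs 4 were detected in a CSC column of the table, miR-155, miR-223, miR-342 and miR-486. MiR-223 had totals of 10.9 and 10.7 in Star CSC, against no detection and 8.66 in Stylo CSC. MiR-342 alone passed background on a CSC array, at 79.6 and 52.9 units in Star CSC, against 45.9 and 88.9 in Stylo CSC, and their summed scaled signal was 0.329 and 0.260 in Star CSC, against 0.564 and 0.527 in Stylo CSC. Of 10 neural miRNAs on the array miR-138a alone did. Serum-abundant miR-16, miR-92a and miR-320 were above background on a CSC array, and miR-486 too was detected in a CSC column. Their list summed to 0.445 and 0.384 in Star CSC, against 0.696 and 0.323 in Stylo CSC, and the part of serum RNA in the rises of miR-16 and miR-92a was not tested.

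Which of these differences were particular to the sorted cells was asked by setting the difference between the lines in CSC against that between the unsorted parents, as an interaction term. On slide 1 20 of 50 miRNAs differed, 40.0%, and the deposited values gave 19 of 56, 33.9%. Over the 7 arrays 0 of 46 passed by limma, 0.0%, with 8 at an unadjusted p under 0.05. The value table holds the totals of the slide 1 arrays, so calls shared by slide 1 and the table are not independent. Slide 1 and the table both called 14 miRNAs with the same sign, 7 positive and 7 negative, 70.0% of the slide 1 calls and 73.7% of the table's. The slide 1 count was 10 without either Star CSC array. Of the calls 5 of 20 on slide 1 and 2 of 19 in the table met the filter through 1 group alone, miR-31 in both and miR-155 through Stylo parent on slide 1, and these are no support. The CSC and parent differences had opposite signs in 14 of the 20 and 14 of the 19, and 1 of them was 0 in 4 and 2 more. Over all tested miRNAs 23 of 50 and 25 of 56 had opposite signs. The calls were picked for a large difference between CSC and parents, which favours opposite signs, so their counts are no support for a reversal.

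MiR-15b, let-7e, let-7b and let-7c were relatively higher in Star in the sorted cells than in the parents. MiR-15b had table totals of 57.0 and 52.2 in Star CSC and 24.7 and 23.6 in Stylo CSC, while the parents had 20.6 and 19.2 in Star and 32.5 and 33.3 in Stylo. The parent difference was −1.06 and the CSC difference 0.42, so they differed by 1.48 ± 0.09 (adjusted p = 0.000385). Let-7e differed by 0.99 ± 0.08 (adjusted p = 0.000931), from −0.60 between the parents and 0.39 between the sorted cells. Let-7b and let-7c differed by 0.53 and 0.48. On slide 1 the same 4 differed by 1.44, 1.03, 0.68 and 0.57. In the let-7 family 3 of 6 were called in the table, all positive, where 33.9% of all tested miRNAs were called and 10 of 56 were positive. The family medians were 0.63 on slide 1 and 0.50 in the table, beside −0.02 and −0.05 over all tested miRNAs. The values of miR-15b and let-7e kept their sign under the alternatives tried for this difference, and the slide 1 calls of both, and of let-7c, ended without either Star CSC array, that of let-7b without Star parent replicate 2.

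MiR-92a differed by 3.73 ± 0.72 in the table (adjusted p = 0.0145) and 2.65 ± 0.19 on slide 1 (adjusted p = 0.00753). Both sizes depend on the floor, since both Star parent arrays lay at it on slide 1 and Stylo CSC replicate 1 was set to it in the table. Its table totals were 25.2 and 19.5 in Star CSC, against 6.51 in Stylo CSC replicate 2 and no detection in replicate 1, and among the parents 5.18 and 5.15 in Star against 19.6 and 14.5 in Stylo. The lines stood in opposite order in sorted and unsorted cells on slide 1 and in the table. With all 7 arrays they stood in the same order, at −0.29 in CSC and −1.95 in parents (adjusted p = 0.48 for the difference by limma). The table call ended without Star CSC replicate 2 or Stylo parent replicate 1. MiR-155, an oncogenic miRNA of B lymphocytes, differed by 1.74 ± 0.08 in the table (adjusted p = 0.00023) and 0.96 on slide 1. Its totals in the parents were 4.01 and 3.90 in Star against 9.76 and 10.9 in Stylo, and in CSC it was at or near the floor, which sets both sizes. MiR-31 had its parents at the floor, so its difference of 1.54 in the table is that of CSC.

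The 7 negative differences were miR-191, miR-210, miR-22, miR-23a, miR-23b, miR-27b and miR-29a. They had in common that Star parent exceeded Stylo parent while the sorted cells showed a smaller or opposite difference, a pattern that picking negative terms favours. MiR-29a, which represses collagens and DNA methyltransferases, had table totals of 31.6 and 29.3 in Star parent, against 11.1 and 11.0 in Stylo parent. In sorted cells it had 23.4 and 20.7 in Star, against 14.5 and 12.9 in Stylo, so the differences were 1.13 and −0.07 and differed by −1.20 ± 0.10 (adjusted p = 0.001). Of the 5 listed members of the miR-23, miR-27 and miR-24 clusters 3 were tested, and all 3 were called negative in the table. There 33.9% of all tested miRNAs were called and 9 of 56 were negative. On slide 1 miR-23b, miR-27b and miR-23a were at −1.17, −0.89 and −0.53. In the table miR-23b was at −1.29 ± 0.07 (adjusted p = 0.000385 by limma), miR-27b at −1.26 and miR-23a at −0.79. MiR-22 differed by −1.23 ± 0.18. MiR-210, which hypoxia induces, was at −1.56 in the table and −0.85 on slide 1, sizes set by the floor, at which Stylo parent lay in both. Its table call ended without Star parent replicate 2 and its slide 1 call without either Star parent array. MiR-191 at −2.05 ± 0.57 passed narrowly in the table (adjusted p = 0.0495) and ended as a call without each of the 4 Star samples and the 2 Stylo CSC samples in turn and with the replicate block. On slide 1, where its Stylo parent array lay at the floor, its call ended under each of the 6 alternatives tried. The sign of these 7 differences did not turn without scaling in either set, though without it the calls of miR-210 and miR-23a in the table ended, as did those of all but miR-23b on slide 1. Without either Star CSC array the slide 1 calls of miR-22, miR-23a, miR-23b, miR-27b and miR-29a ended.

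**Figure D4:**
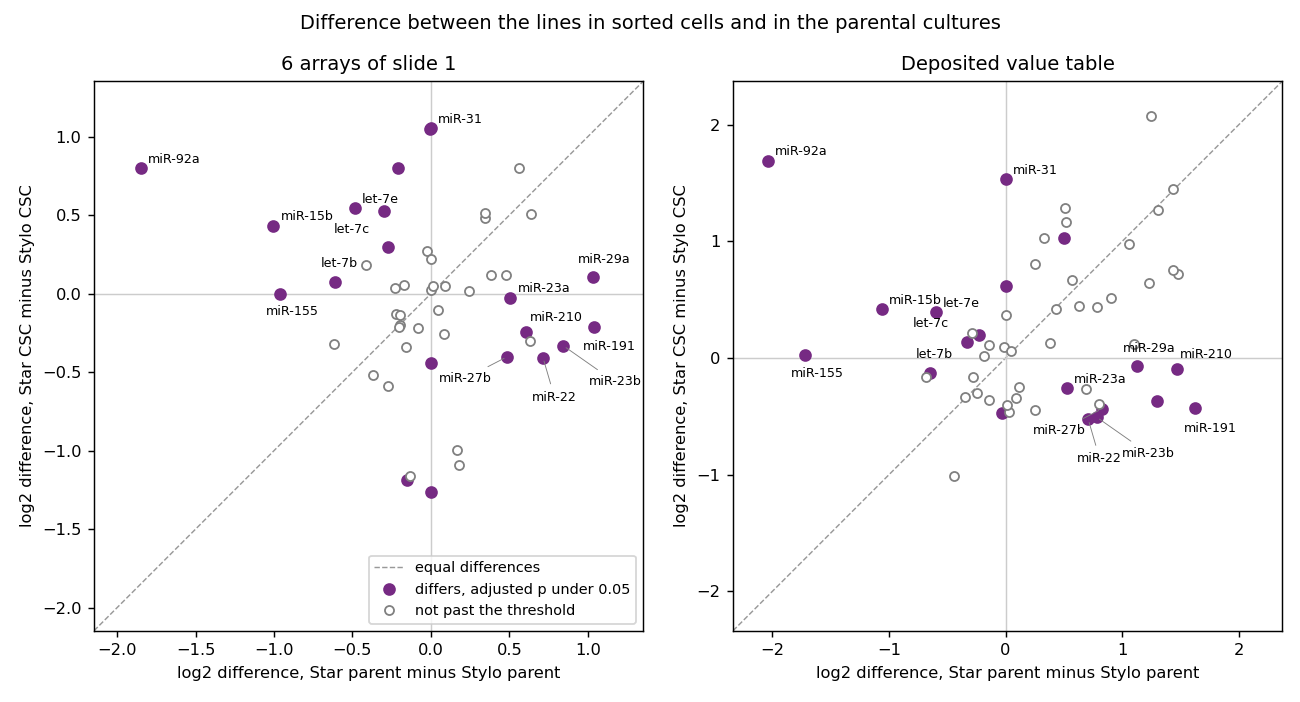
Log2 difference between the lines in sorted cells (Star CSC minus Stylo CSC, vertical) against that in unsorted cells (Star parent minus Stylo parent, horizontal), on slide 1 (left) and in the deposited value table (right). Each point is a tested miRNA; purple points differ between the axes with an adjusted p under 0.05, names mark those that did so in both panels, and the dashed line marks equal differences. MiR-92a lay at −1.85 and 0.80 on slide 1 and −2.04 and 1.69 in the table, and its distance from the line in each panel depends on the floor.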

How the data were processed

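Per the file headers, Agilent Feature Extraction 11.5.1.1 gave the deposited spot intensities, already corrected for background, and a flag on each spot that cleared it. The authors also deposited log2 values per miRNA, whose scale and centring are not given in the sources used here. Differences between columns equalled those of the software's log2 totals after 1 shift per array (tolerance 0.01) in 454 of 454 miRNAs, except 409 for Stylo CSC replicate 1 and 406 for Stylo parent replicate 2, whose shifts lay at undetected miRNAs. Column medians were −0.94 and −0.63 for Star CSC, 6.15 and −0.01 for Stylo CSC, 0.01 and −0.12 for Star parent, 0.29 and 6.15 for Stylo parent. The table was therefore rescaled here to its 75th percentile over 22 miRNAs detected in every column.

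From the scanner files, outlier spots (3.84% to 9.15%) were left out, spots of the 998 probes averaged and probes summed per miRNA. Arrays were divided by the 75th percentile over the 22 probes (39 on slide 1) that passed background everywhere, floored at the median of the lowest measured levels, and put on the log2 scale. A probe was well above background with over 50% of its spots so. Tested miRNAs were above background, or detected, in every array of a group. At the floor arrays show no spread, so errors are too small there. Limma 3.58.1 in R 4.3.3 was fitted to group means with eBayes, two-sided, with 3, 2 and 4 residual degrees of freedom in the 3 sets; the number of arrays limits precision. "At least" folds set the brighter mean against the lowest measured level of each dimmer array, or the miRNA's own floored level where that was higher. On slide 1 the printed ones equal the plain folds of the floored means. Named miRNAs passed in at least 1 set, were detected in 1 group alone, were brightest, or belonged to a list. Neighbouring genes come from RefSeq (UU_Cfam_GSD_1.0), which matched 58 of 59 miRNAs, within 10 kb. Members, lists and tests were chosen with earlier results of these data known. Samples were fitted as unpaired. Deviations of the Star CSC and Stylo CSC replicates of the same number correlated at −0.05 over the 7 arrays and −0.15 in the table. The slide 2 array and undetected values set to the floor enter these correlations, so they cannot show whether replicate numbers paired the samples. The fit was tested on simulated data.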

Additional observations from a re-analysis of the deposited data

Results flagged for a closer look

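The difference between the lines differed between sorted and unsorted cells, by an interaction term in the deposited value table that also passed on slide 1, for 14 miRNAs. The 7 positive values, as log2 differences, were 3.73 for miR-92a, 1.74 for miR-155, 1.54 for miR-31, 1.48 for miR-15b, 0.99 for let-7e, 0.53 for let-7b and 0.48 for let-7c. The 7 negative values were −2.05 for miR-191, −1.56 for miR-210, −1.29 for miR-23b, −1.26 for miR-27b, −1.23 for miR-22, −1.20 for miR-29a and −0.79 for miR-23a. MiR-31 was tested through Star CSC alone in both sets and miR-155 through Stylo parent alone on slide 1, and the sizes for miR-92a, miR-155, miR-31, miR-191 and miR-210 depend on the floor. Over the 7 scanner arrays none of these passed by limma (0 of 46, with 8 at an unadjusted p under 0.05). The value table holds the totals of the slide 1 arrays as well, so passing in both is not independent support.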

How the results depend on the processing

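Over the 7 arrays, against 3 calls, the counts were 0 with the percentile over all probes, with software totals, with no filter, with CSC arrays alone, with the replicate block and at an unadjusted p of 0.05 with 2-fold. They were 5 by quantile normalization, 15 without scaling, 1 with normexp, 26 with the slide as a block (15 higher, 11 lower) and 0 to 36 with 1 sample left out. On slide 1, against 23, they were 0 with the percentile over all probes and 8 to 11 with 1 sample left out. The split there moved to 29 higher and 2 lower without scaling and to 2 and 24 with normexp. In the table, against 11, they were 31 without scaling (31 higher), 0 with the shifts of the deposited columns, 2 with CSC columns alone and 7 to 19 with 1 sample left out. The replicate block gave 9 there, and 10 with the Stylo CSC numbers crossed. The difference between CSC and parents, 0 over the 7 arrays, was 20 on slide 1 (10 to 16 with 1 sample left out) and 19 in the table (15 to 26, and 18 with the replicate block). Its split was 14 positive and 3 negative on slide 1 and 12 and 5 in the table without scaling.

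Directions that turned over the 7 arrays were miR-103 (−0.23), miR-31 (−0.30) and miR-874 (−0.21) with normexp, miR-21 (0.76) and miR-23a (0.82) without scaling, and, with the slide as a block, miR-125b (−0.25), miR-22 (−0.40), miR-23b (−0.32), miR-27b (−0.40), miR-29a (0.11), miR-331 (−0.21) and miR-92a (0.81). With 1 sample left out, values ranged over −0.19 to 0.43 for miR-15b, −0.29 to 0.53 for miR-16, −0.33 to 1.65 for miR-23b, −0.40 to 1.45 for miR-27b, −0.52 to 0.29 for miR-8892 and −1.38 to 0.80 for miR-92a. Those of miR-23b, miR-27b and miR-92a turned without Stylo CSC replicate 1, and those of miR-15b, miR-16 and miR-8892 without Stylo CSC replicate 2. The slide block also takes Stylo CSC replicate 1, alone on slide 2, out of the comparison. Its count and turned signs therefore largely repeat the fit without that array and are no separate check. On slide 1, the percentile over all probes turned miR-23b (0.089), miR-27b (0.019) and miR-494 (0.28), and quantile normalization miR-27b (0.022). No scaling turned miR-1249 (0.048), miR-223 (0.32), miR-23a (0.61), miR-23b (0.31), miR-27b (0.24), miR-30d (0.51), miR-331 (0.42), miR-494 (0.50), miR-8824 (0.43) and miR-8892 (0.12). Normexp turned let-7g (−0.022), miR-103 (−0.049), miR-16 (−0.00195), miR-188 (−0.021), miR-221 (−0.37), miR-222 (−0.10), miR-29a (−0.22), miR-31 (−0.084), miR-874 (−0.049) and miR-92a (−0.063). In the table, no scaling turned let-7a (0.59), let-7b (0.63), miR-125b (0.28), miR-22 (0.23), miR-23a (0.50), miR-23b (0.25), miR-27b (0.32), miR-29a (0.68), miR-331 (0.40) and miR-494 (0.46), and the shifts of the deposited columns let-7e (−2.71) and miR-15b (−2.68). The cause was not tested. A further 67 of 793, 18 of 369 and 32 of 626 values over the 7 arrays, on slide 1 and in the table changed sign without being called.

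Normexp on slide 1, crossed numbers, the table's percentile scaling and the alternatives for the difference between CSC and parents were chosen after seeing the data. Normexp on the mean signal was not run. Slide 1 leaves 1 Stylo CSC and 1 Stylo parent array, both assumed to vary like the Star pairs. In the table, median replicate differences over tested miRNAs were 0.365 for Stylo CSC and 0.224 for Stylo parent. They were 0.077 for Star CSC and 0.062 for Star parent, so errors on slide 1 may be too small. Undetected values set to the floor enter these differences. Signals near background limit what the dim miRNAs can show.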
